A study of Mus musculus with 44 samples.

Results

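The spliceosome is described here through 78 of the 35269 genes in the deposited table of single mouse 2-cell embryos. They are the genes whose names start with Snrp, Sf3a, Sf3b, U2af or Hnrnp, with Prpf or Srsf followed by a digit, or consist of Lsm and a number alone, and that remain once the imprinted gene Snrpn and names containing -ps are set aside. The rule itself uses names and no measured values. By role they fall into 7 Sm proteins, 5 U1 and U1-linked proteins, 11 proteins of U2 and the branch point, 3 U2AF genes, 10 proteins of the tri-snRNP and of spliceosome activation, 11 Lsm proteins, 11 SR proteins and 20 hnRNPs.

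Introns are removed by small nuclear ribonucleoproteins (snRNPs), each built from a small nuclear RNA wrapped in a ring of Sm or Lsm proteins. U1 recognises the 5′ splice site, the U2AF proteins recognise the 3′ splice site, U2 pairs with the branch point through its SF3A and SF3B proteins, and the tri-snRNP of U4, U6 and U5 then joins and is activated. SR proteins and hnRNPs bind the transcript itself and promote or repress the use of nearby sites, and many hnRNPs also act in mRNA stability and transport. The early embryo starts with messages stored by the oocyte, which are degraded while the embryonic genome is switched on around the 2-cell stage, so a transcript measured at this stage can be maternal, embryonic or both.

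Each of 44 embryos was collected from a natural mating, at E1.5 per the study's methods, and sequenced as its own Smart-seq2 library from polyadenylated RNA. Dppa2 and Dppa4, paired nuclear proteins studied as regulators of genome activation, were removed from the mother with a floxed double allele and Zp3-Cre, which acts in growing oocytes, so that the stored gene products were depleted in all embryos of such mothers. The 14 WT embryos (Dppa2/4+/+) came from control females and WT males, in litters of 10 and 4. The 15 HET1 embryos (Dppa2/4+/−) came from maternal knockout (cKO) females and WT males, in litters of 7 and 8. The 5 HET2 embryos (Dppa2/4+/−) and the 10 HOM embryos (Dppa2/4−/−) came from cKO females and heterozygous males and shared 2 litters, with 4 HET2 and 3 HOM embryos in the first and 1 HET2 and 7 HOM embryos in the second. HET1, HET2 and HOM embryos thus all had a mother whose oocytes lacked the genes, and the null allele of HET1 and HET2 embryos was the maternal one. The authors assigned HET2 and HOM genotypes from Dppa2 and Dppa4 transcripts. Embryos of a litter share a mother, and each of the other litters holds a single group, so the effects of group and of litter cannot be told apart wherever WT embryos are compared. A whole embryo was the sample, so fewer cells and less RNA per cell cannot be told apart either.

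Total reads per embryo ranged from 247667 to 3163026, with group medians of 1770010 (WT), 528166 (HET1), 1108889 (HET2) and 803369 (HOM). Values are log2 RPM, in which reads are scaled to the total of the embryo, and every value below 1.86, the highest value that an embryo's genes without reads hold, was raised to that level (the common floor). Dppa2 had reads in all 14 WT, 15 HET1 and 5 HET2 embryos and in 3 of 10 HOM embryos, where at most 7 reads were found. Litters differed in the summed level of 10 oocyte markers (10 of 10 found). It was 9140 to 17900 RPM in the second cKO x WT litter and 7600 to 12700 RPM in the first cKO x HET litter, against 2620 to 8880 RPM over the other 4 litters. Omt2b and Dppa3 weigh most in this sum, with means of 11.66 and 10.42 log2 RPM over all 44 embryos. Zp3, Gdf9 and Nlrp5 had means of 5.1, 6.15 and 4.98. The 9 cumulus and granulosa markers summed to between 0 and 112 RPM. Fshr had no read in any embryo and Amh had reads in 1, whereas Amhr2 had reads in 43.

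All but 2 of the 78 genes were measured well enough to be tested. Srsf12 had 0 reads in the 44 embryos and Prpf40b had reads in 3 of them. Of the other 76, 59 had at least 1 read in every embryo and 51 never lay at the floor. Levels per kilobase of exon (RPKM) of these 76 ran from Lsm11 at 1.59 ± 1.54 to Snrpe, an Sm ring protein, at 727 ± 470 (mean ± SD, n = 44). Snrpe alone held 11.9% of all reads in the 78 genes. Its 44 embryos lay between 132 and 5843 reads. Snrpg, another Sm protein, followed at 142 ± 89.3 RPKM, Hnrnpa2b1 at 117 ± 61.4 RPKM, Hnrnpdl at 103 ± 47.6 RPKM and Snrpd1 at 101 ± 54.9 RPKM. These 4 overlapped within their SDs, so their order is not resolved, and it differed between groups. In WT embryos Snrpg stood at 81.9 ± 40.2 RPKM, below Snrpd1 at 147 RPKM, Hnrnpa2b1 at 138 RPKM and Hnrnpdl at 121 RPKM.

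The other roles had lower leading members. Srsf1, an SR protein that helps define exons, led the SR proteins at 72.7 ± 31.1 RPKM, and Srsf7 came next at 41.5 ± 19.1 RPKM. Lsm8, the subunit that marks the nuclear Lsm ring on U6 RNA, led the Lsm proteins at 41.5 ± 21.3 RPKM. Among U2 proteins the highest were Sf3b6, which sits at the branch point, at 39.3 ± 19.6 RPKM and Sf3b1, the large scaffold of SF3B, at 36.1 ± 7.94 RPKM. Prpf38a and Prpf38b, both of the activation step, stood at 31.2 ± 12.2 and 17.4 ± 5.69 RPKM. Snrpa led the U1 proteins at 20.9 ± 13.7 RPKM, and U2af1 and U2af1l4 the U2AF genes at 16.8 ± 9.00 and 14.3 ± 13.5 RPKM. Small genes such as Snrpe and Snrpg can have near-identical copies, whose reads a mapping filter may discard, so levels per kilobase of these genes are uncertain. U2af1l4 shares 65.6% of its exon length with Gm49396 on the same strand and Snrpf 65.8% with Ccdc38 on the other, and reads made without regard to strand do not separate them. The spread among WT embryos was like that of other genes, with a median SD of 0.70 over the tested genes of the group against 0.68 over all tested genes (log2 RPM).

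HOM embryos were compared with WT embryos to ask how embryos lacking both maternal and zygotic Dppa2/4 differ. No splicing gene passed the threshold: 0 of 76 had an adjusted p under 0.05 by limma, and 19 had an unadjusted p under 0.05. With limma voom on the recovered reads these counts were 0 and 17. Among all 16412 tested genes 0.0183% were called and 14.5% had an unadjusted p under 0.05. The median difference was 0.14 over the 76 genes and 0.09 over all genes (log2). The smallest adjusted p, 0.0847, was shared by Hnrnpk, Hnrnpd and Hnrnpa3.

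Hnrnpk, which binds C-rich RNA and DNA, ranged from 8.63 to 9.91 log2 RPM in WT embryos (median 9.35) and from 8.11 to 9.09 in HOM embryos (median 8.67), and the groups overlapped. The difference was -0.72 (standard error 0.17, 95% confidence interval -1.05 to -0.38). Hnrnpd, also called AUF1, which binds AU-rich elements and promotes mRNA decay, ranged from 6.33 to 8.22 in WT embryos (median 7.08) and from 5.15 to 6.74 in HOM embryos (median 5.75), a difference of -1.23 (standard error 0.30). Hnrnpa3 ranged from 4.01 to 5.85 in WT embryos (median 5.21) and from 2.61 to 5.11 in HOM embryos (median 4.04), a difference of -1.24 (standard error 0.31). The most abundant member, Snrpe, ranged from 9.35 to 11.77 in WT embryos (median 10.31) and from 8.04 to 10.38 in HOM embryos (median 8.78), a difference of -1.23 (standard error 0.35, adjusted p = 0.125). For each of these 4 genes the WT and HOM embryos overlapped. In the other direction Snrpa, a U1 protein, had the largest difference of the 76 genes. It ranged from 1.86 to 6.71 in WT embryos (median 5.04) and from 4.86 to 7.51 in HOM embryos (median 6.55), a difference of 1.42 (standard error 0.42, adjusted p = 0.142). Of the 76 differences 44 were positive, beside 10456 of all 16412 tested genes, which is a larger share.

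By role, the median differences between HOM and WT embryos were 0.80 for the 3 U2AF genes, 0.45 for the 11 Lsm proteins, 0.29 for the 7 Sm proteins, 0.24 for the 11 U2 proteins, 0.19 for the 4 U1 proteins tested, 0.05 for the 10 SR proteins tested, 0.01 for the 10 tri-snRNP and activation proteins and -0.21 for the 20 hnRNPs, beside 0.09 over all tested genes. Leaving out a litter gave a single call in 3 of the fits. Without the first cKO x HET litter it was Hnrnpd, without the second Srsf6 and without the first control litter Hnrnpul2, each lower in HOM embryos (1.32% of the 76 genes, where 0.487%, 0.250% and 1.52% of all genes were called). The direction of the median over the 76 genes also rested on the litters, at 0.34 without the first cKO x HET litter and -0.26 without the second. Relative to all tested genes it was 0.05, and -0.17 with embryos re-centred on their medians.

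**Figure D1:**
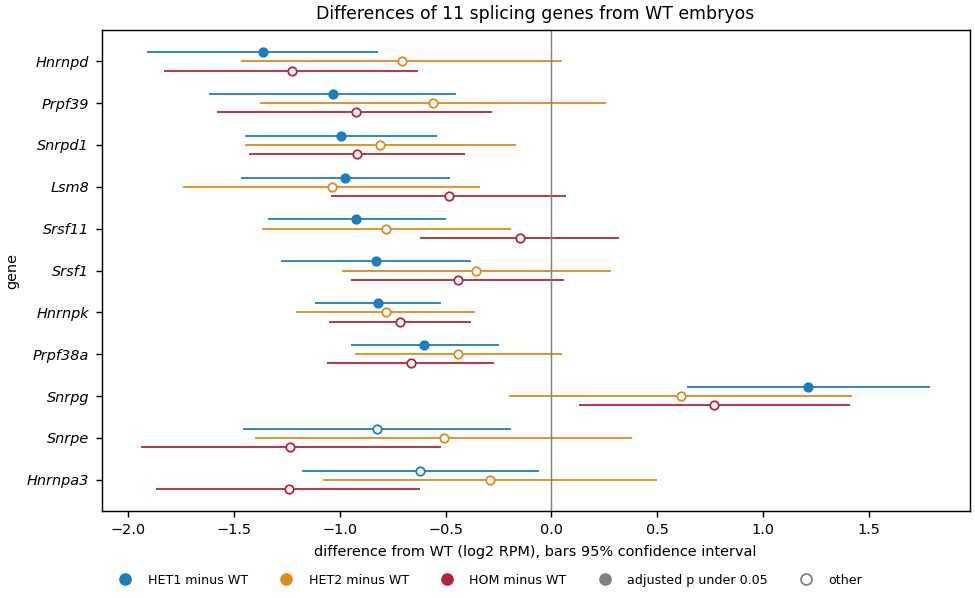
Difference from WT embryos (x axis, log2 RPM, first group minus WT) of 11 splicing genes (y axis), the 9 called in HET1 embryos plus Snrpe and Hnrnpa3, for HET1, HET2 and HOM embryos. Bars are 95% confidence intervals from the limma fit and filled points have an adjusted p under 0.05. Hnrnpk lies at -0.82, -0.78 and -0.72 in HET1, HET2 and HOM embryos, whereas Srsf11 lies at -0.92, -0.78 and -0.15.

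HET1 embryos were compared with WT embryos to ask how embryos of cKO mothers differ when they carry an intact paternal copy. Here 9 of the 76 splicing genes were called (11.8%), against 4.54% of all tested genes, with 8 lower (2.05% of all genes) and 1 higher (2.49%). This excess over all genes did not hold under every setting. Without the common floor 18.4% of the 76 and 24.7% of all genes were called, and with voom 11.8% and 15.4%. Among genes averaging 3 or more the excess was smaller, at 18.1% and 15.1%. The median difference was -0.09 over the 76 genes and 0.05 over all genes, and 0.11 and 0.09 without the second cKO x WT litter. Relative to all genes the median was -0.13, and -0.71 without the floor and -0.67 with voom. None of the 9 calls held when litter was fitted as a random effect, where the adjusted p of the genes lay between 0.207 and 0.460. The calls were also all lost when the mean of each group in each litter was used as a replicate (litter means). There the HET2 and HOM means of a shared litter entered separately. In these fits, in the same order, 14 and 2 of 76 genes had an unadjusted p under 0.05 (18.4% and 2.63%, with 7.97% and 3.01% of all genes). None held without the second cKO x WT litter (18 at an unadjusted p under 0.05, or 23.7%, with 15.7% of all genes). Without the first control litter 1 (Hnrnpd) held (1.32%, with 1.74% of all genes), and without the first cKO x WT litter 19 genes were called, with 14.3% of all genes.

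Promoter windows are shown for 4 of the 9 called genes, a pair of hnRNPs, an SR protein and the only gene that rose, as examples of the roles and of both directions. The sequences are RefSeq's on GRCm38.p6, from 250 bases before to 50 after the RefSeq start of the gene, read 5′ to 3′ on the strand of the gene. Srsf11 has 2 windows there, of which the one listed first is shown. Capitals mark CCGGAAG, an Ets-type site, and CCAAT on either strand, as CTTCCGG and ATTGG where reversed. The windows are Hnrnpk at chr13:58402068-58402367 (minus strand), Hnrnpd at chr5:99978889-99979188 (minus), Srsf11 at chr3:158036557-158036856 (minus) and Snrpg at chr6:86371290-86371589 (plus). RefSeq starts can differ from those of the deposited genes. The Hnrnpk window lies inside the deposited gene, which starts at 58403343, and most of the Snrpg window lies inside its gene, which starts at 86371304.
Hnrnpk: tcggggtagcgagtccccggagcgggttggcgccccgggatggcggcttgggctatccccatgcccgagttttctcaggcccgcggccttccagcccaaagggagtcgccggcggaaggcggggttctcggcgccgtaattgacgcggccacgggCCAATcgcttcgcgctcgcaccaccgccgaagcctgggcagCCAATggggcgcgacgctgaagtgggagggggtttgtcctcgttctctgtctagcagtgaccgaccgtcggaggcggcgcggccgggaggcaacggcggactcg
Hnrnpd: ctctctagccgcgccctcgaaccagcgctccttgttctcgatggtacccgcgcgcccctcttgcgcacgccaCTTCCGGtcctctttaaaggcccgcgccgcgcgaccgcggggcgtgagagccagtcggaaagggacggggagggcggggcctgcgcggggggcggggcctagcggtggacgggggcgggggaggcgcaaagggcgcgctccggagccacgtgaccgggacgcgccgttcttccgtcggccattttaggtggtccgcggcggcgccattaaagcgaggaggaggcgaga
Srsf11: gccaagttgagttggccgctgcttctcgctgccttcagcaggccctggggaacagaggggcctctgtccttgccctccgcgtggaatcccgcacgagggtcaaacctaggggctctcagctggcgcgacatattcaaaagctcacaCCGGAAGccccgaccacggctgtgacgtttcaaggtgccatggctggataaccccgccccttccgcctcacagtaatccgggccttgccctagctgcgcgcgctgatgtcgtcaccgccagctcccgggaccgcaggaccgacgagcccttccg
Snrpg: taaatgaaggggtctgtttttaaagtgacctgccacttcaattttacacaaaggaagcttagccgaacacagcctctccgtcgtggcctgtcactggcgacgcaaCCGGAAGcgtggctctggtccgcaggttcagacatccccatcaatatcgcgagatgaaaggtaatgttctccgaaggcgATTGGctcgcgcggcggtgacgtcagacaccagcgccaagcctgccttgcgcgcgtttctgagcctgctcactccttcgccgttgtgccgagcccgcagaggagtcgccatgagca
Of the 78 genes, 66 had such a window. CCGGAAG was found on either strand in 31.8% of the 66 and in 9.93% of the windows of all 27025 genes, GGGCGG (the GC box) in 72.7% and 38.2%, CCAAT in 50.0% and 41.1%, and TATAAA in 9.09% and 15.7%. These are matches of letters and were not tested as binding sites.

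Among the hnRNPs, 2 of 20 were called and both fell. Hnrnpk (ENSMUSG00000021546.18) ranged from 7.51 to 9.37 in HET1 embryos (median 8.48), against 8.63 to 9.91 in WT embryos, and the groups overlapped. It fell by 0.82 on the log2 scale (standard error 0.15, adjusted p = 0.00162), from 102 ± 20.1 to 59.5 ± 18.2 RPKM. Hnrnpd (ENSMUSG00000000568.15) ranged from 3.60 to 7.03 in HET1 embryos (median 5.73), against 6.33 to 8.22 in WT embryos. It fell by 1.37 (standard error 0.27, adjusted p = 0.00311), the largest difference among the 9 genes, and the lowest HET1 embryo held 3 reads. Without the second cKO x WT litter the differences were -0.71 and -1.22, with adjusted p of 0.0622 and 0.0713, and without the first control litter that of Hnrnpk was -0.54 (adjusted p = 0.300). Hnrnpk and Hnrnpd share 5.10% and 5.24% of their exon lengths with genes on the other strand.

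Of the 10 SR proteins tested, 2 were called. Srsf1 ranged from 7.11 to 9.17 in HET1 embryos (median 8.04) and from 7.84 to 9.72 in WT embryos (median 9.08), and it fell by 0.83 (standard error 0.22, adjusted p = 0.0243). Its difference was -0.28 without the first control litter, and the control litters had means of 9.20 and 8.43. Srsf11, an SR-type protein that contacts early spliceosome factors, ranged from 5.58 to 7.58 in HET1 embryos (median 6.71) and from 6.93 to 8.91 in WT embryos (median 7.51). It fell by 0.92 (standard error 0.21, adjusted p = 0.00755).

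Sm proteins were called in both directions. Snrpd1 ranged from 6.19 to 8.33 in HET1 embryos (median 7.02) and from 7.45 to 9.40 in WT embryos (median 8.03), and it fell by 0.99 (standard error 0.22, adjusted p = 0.00778). Snrpg (ENSMUSG00000057278.8) was the only called gene that rose. It ranged from 6.77 to 9.33 in HET1 embryos (median 8.02) and from 5.86 to 8.07 in WT embryos (median 6.68). Its difference was 1.21 (standard error 0.29, adjusted p = 0.0101), or 81.9 ± 40.2 RPKM in WT against 196 ± 99.9 RPKM in HET1 embryos. Without the second cKO x WT litter it was 0.76 (adjusted p = 0.266). Snrpe had a difference of -0.82 (adjusted p = 0.128), which was -0.48 without the first cKO x WT litter and -1.22 without the second. Snrpd1 and Snrpg are parts of the same ring.

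The remaining 3 calls lay in the core machinery. Prpf39, a U1-linked protein, ranged from 4.32 to 7.79 in HET1 embryos (median 6.32) and from 6.17 to 7.98 in WT embryos (median 7.19), and it fell by 1.03 (standard error 0.29, adjusted p = 0.0301). Lsm8 ranged from 5.08 to 7.74 (median 7.07) against 7.07 to 8.93 (median 7.70), and it fell by 0.98 (standard error 0.25, adjusted p = 0.0157). Without the second cKO x WT litter the difference of Lsm8 was -0.30 and without the first -1.57. Prpf38a ranged from 6.10 to 7.89 (median 7.02) against 6.71 to 8.74 (median 7.74), and it fell by 0.60 (standard error 0.17, adjusted p = 0.0354), with a difference of -0.29 (adjusted p = 0.524) without the second cKO x WT litter. None of the 11 U2 proteins and 3 U2AF genes was called in HET1 embryos, where 2 and 1 had an unadjusted p under 0.05. In that comparison 28 of the 76 genes (36.8%) and 18.4% of all tested genes had one. Summed oocyte markers moved with this comparison, at 2680 to 8880 RPM in WT embryos (median 4130) and 2620 to 17900 RPM in HET1 embryos (median 9140). Summed markers of the activated 2-cell stage had medians of 446 and 975 RPM, and the share of mitochondrially encoded reads averaged 12.4% and 9.37%. The part of these 3 measures in the comparison was not tested.

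**Figure D2:**
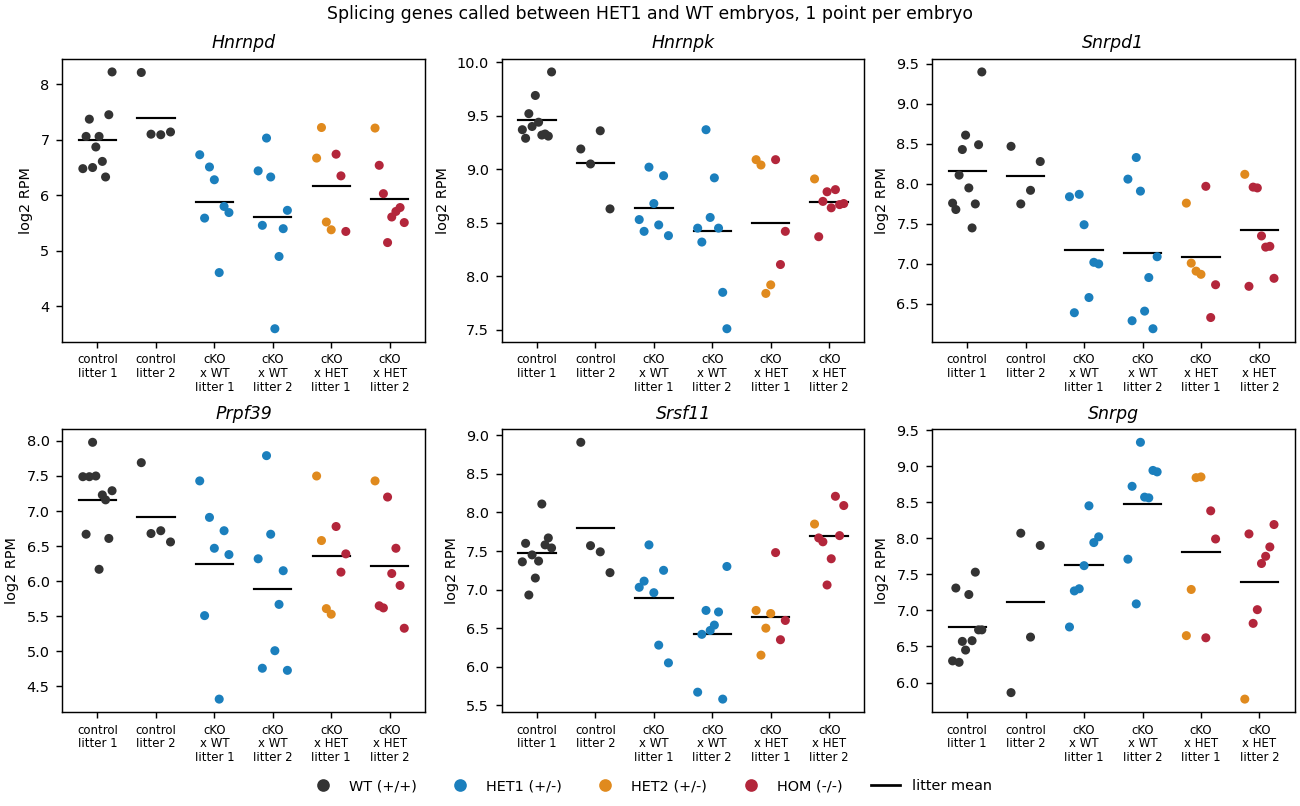
Level (y axis, log2 RPM) of Hnrnpd, Hnrnpk, Snrpd1, Prpf39, Srsf11 and Snrpg in each of 44 embryos, by litter (x axis). Points are embryos coloured by genotype group and bars are litter means. For Hnrnpd, Hnrnpk, Snrpd1 and Prpf39 the means of all 4 litters of cKO mothers lie below both control litters, and Srsf11 in the second cKO x HET litter lies at 7.70, between the control litters at 7.48 and 7.80.

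A list of 99 other splicing genes, from SMN complex members to SR kinases, was read in the same way. In HET1 embryos 2 of them rose and 8 fell (10.1% called), against 4.54% of all tested genes (2.49% higher and 2.05% lower), and none of these calls held with litter as a random effect, with litter means as replicates or without the second cKO x WT litter. Raly, an hnRNP C relative, differed by 2.03 (standard error 0.46, adjusted p = 0.00769) and Gemin2, which helps load Sm rings onto RNA as part of the SMN complex, by -1.89 (standard error 0.50, adjusted p = 0.0208). Syncrip, an hnRNP-like RNA-binding protein, fell by 1.08 (adjusted p = 0.0120) and Snrnp48, of the minor spliceosome, by 1.07 (adjusted p = 0.0215). Gemin2 lay at -0.72 without the second cKO x WT litter and at -2.91 without the first, and Snrnp48 at -0.59 without the second and -0.54 without the first control litter. In HOM embryos 0 of the 99 were called and 14 had an unadjusted p under 0.05, near the 14.5% of all tested genes.

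HET2 embryos tell how heterozygotes look when they share litters with HOM embryos, but 4 of the 5 came from 1 litter. Against WT embryos 0 of 76 splicing genes and 0 of 99 other splicing genes were called, with 9 and 11 at an unadjusted p under 0.05, where 0.0305% of all genes were called and 8.52% had an unadjusted p under 0.05. Hnrnpk stood at 9.09, 9.04, 7.84, 7.92 and 8.91 log2 RPM in the 5 embryos, 2 of which lay below every WT embryo. Its difference from WT embryos was -0.78 (standard error 0.21, adjusted p = 0.283). Hnrnpd stood at 6.67, 7.22, 5.52, 5.38 and 7.21, with the same 2 embryos lowest, and its difference was -0.71 (95% confidence interval -1.47 to 0.05). Snrpg stood at 6.65, 7.29, 8.84, 8.85 and 5.77, with these 2 embryos highest. Both of these embryos were from the first cKO x HET litter. Without that litter, which leaves a single HET2 embryo, the difference of Hnrnpk was -0.435, that of Hnrnpd 0.11 and that of Snrpg turned from 0.61 to -1.10. Leaving out each of the other litters gave differences of Hnrnpk from -0.898 to -0.50. The median difference over the 76 genes, taken relative to the median of all tested genes, was -0.30, and it was 0.01 without the first cKO x HET litter, -0.13 without the first control litter and -0.18 without the second HET2 embryo.

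Null embryos and heterozygous littermates were compared within litter, the only comparison of genotypes in which the mother is shared. None of 76 splicing genes was called (2 at an unadjusted p under 0.05), while 0.0183% of all genes were called and 4.81% had an unadjusted p under 0.05, and the smallest adjusted p in the group was 0.978. The median difference over the 76 genes, taken relative to all tested genes, was 0.08, and its sign was not stable, at -0.15 without the common floor, -0.14 with genes averaging 3 or more or with voom and -0.11 with re-centred embryos. A p above the threshold does not show that the genotypes act alike.

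The 6 litters can also be ordered by their means without a test, since 4 litters against 2 cannot give an exact two-sided permutation p below 0.133. In 15 of the 76 splicing genes (19.7%) all 4 litters of cKO mothers lay below both control litters, against 4.28% of all tested genes and 5.78% of those whose log2 RPM averaged 3 or more. They were Sf3b1, Snrpe, Snrpd1, Prpf18, Prpf38a, Prpf38b, Prpf39, Lsm8, Srsf6 and 6 hnRNPs, namely Hnrnpa3, Hnrnpd, Hnrnpdl, Hnrnpk, Hnrnpr and Hnrnpu. In 8 genes (10.5%) the 4 litters all lay above, against 10.4% of all tested genes, so this share was that of the background. These were Snrpg, Snrpd3, Snrpf, Snrpa, Snrpc, Sf3b2, U2af1l4 and Lsm10, with gaps between the nearest litters of 0.35 or less. In Snrpf these litters both lay at 6.01, and in Lsm10 at 4.05 and 4.10. Of the 99 other splicing genes, all 4 litters of cKO mothers lay below both control litters in 7 (7.07%) and above both in 9 (9.09%).

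The widest gap belonged to Hnrnpd, whose control litters lay at 6.99 and 7.39 and whose other litters lay at 5.89, 5.61, 6.17 and 5.94 (cKO x WT, then cKO x HET). Snrpd1 lay at 8.16 and 8.10 against 7.17, 7.14, 7.08 and 7.42. Prpf39 lay at 7.16 and 6.91 against 6.25, 5.89, 6.36 and 6.22. In Snrpe the order was 10.23 and 10.42 against 9.07, 9.81, 9.37 and 9.23. For Sf3b1, Prpf18 and Srsf6 the gap was 0.04 or less, far below the SD of embryos. With embryos re-centred on their medians 21 genes were below and 3 above (7.85% and 7.20% of all genes, 12.2% and 8.64% of those averaging 3 or more). With median-of-ratios scaling 16 were below and 5 above (5.76% and 8.88% of all genes, 8.57% and 11.5% of those averaging 3 or more). Each of the 15 genes above remained below under both scalings, whereas Snrpd3, Snrpf and Snrpc were above under neither and Snrpg and Lsm10 only with median-of-ratios scaling. Median total reads were lower in all 4 litters of cKO mothers (524828 to 1108889) than in the control litters (1626468 and 1770010). Summed markers of the activated 2-cell stage were higher there, with medians of 483 to 1200 RPM against 446 and 447. Summed oocyte markers and the mitochondrial share followed neither order. The part of these measures was not tested.

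**Figure D3:**
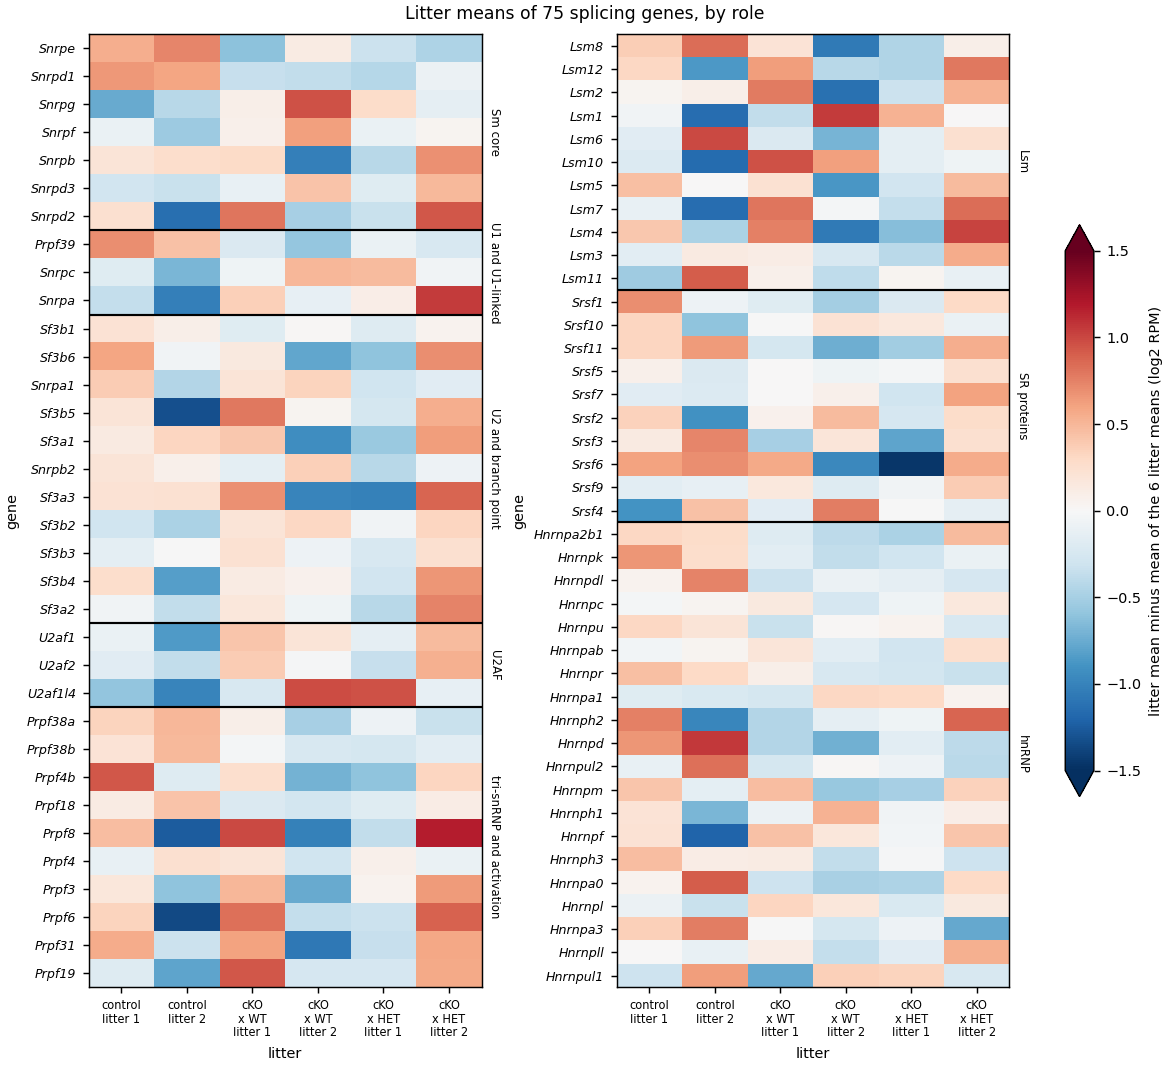
Litter means of 75 of the 76 tested splicing genes (rows, grouped by role and ordered by the level in the first control litter) in the 6 litters (columns), as the difference from the mean of the 6 litter means on the log2 RPM scale. Red is higher and blue lower, and colours stop at 1.5 in either direction. The second cKO x WT litter and the first cKO x HET litter are both low for Srsf6 (4.72 and 4.22, with the other litters between 6.24 and 6.38) and for Sf3a3.

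Litters of the same cross were compared to give a scale for the genotype groups. In the cKO x WT cross 14 of 76 genes were called between the litters (18.4%), near the 16.7% of all tested genes. They were 3 genes higher and 11 lower in the second litter, where 5.01% of all genes were higher and 11.7% lower. In the cKO x HET cross 5 were called (6.58%, with 4.94% of all genes), all higher in the second litter, as were 2.34% of all genes. In the control cross 1 was called, with 2.57% of all genes (0.427% lower in the second litter). It was Hnrnph2, which ranged from 6.28 to 8.12 in the first control litter (median 7.55) and from 3.37 to 7.11 in the second (median 5.94), with a difference of -1.73 (standard error 0.49, adjusted p = 0.0422). This call was lost in 4 of 9 alternatives (adjusted p up to 0.411), among them both other scalings.

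Srsf6, an SR protein that regulates alternative exons, gave the clearest pattern. In the cKO x WT cross it ranged from 5.79 to 6.71 log2 RPM in the first litter (median 6.15) and from 3.68 to 5.73 in the second (median 4.77), without overlap. It fell by 1.53 (standard error 0.33, adjusted p = 0.00106). In the cKO x HET cross it ranged from 2.84 to 5.29 in the first litter (median 4.26) and from 5.67 to 6.93 in the second (median 6.14), again without overlap, and it rose by 2.01 (standard error 0.37, adjusted p = 0.00148). The first of these litters held both HET2 and HOM embryos and both were low. Sf3b6 behaved likewise, with litter means of 6.74 and 5.81 in the cKO x WT cross (difference -0.93, adjusted p = 0.00800) and of 5.99 and 7.29 in the cKO x HET cross (difference 1.35, adjusted p = 0.00407). The call of Sf3b6 in the cKO x WT cross was lost in 3 of 9 alternatives (adjusted p up to 0.172).

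Lsm12 was the last of 3 genes called in both crosses, by -1.05 (adjusted p = 0.0192) and by 1.18, where its adjusted p lay just under the threshold and the call was lost in 5 of 9 alternatives (adjusted p up to 0.104). Of the 3 genes Srsf6 was called in both crosses under all 9. All 3 had opposite signs in the crosses, which share no embryo. The 3 genes were 21.4% of those called in the cKO x WT cross and 60.0% of those called in the cKO x HET cross. Among all tested genes 511 were called in both, 18.6% and 63.1% of the calls, and all 511 also had opposite signs. Over the 76 genes the differences in the crosses had a Pearson correlation of -0.60, beside -0.71 over the 16412 tested genes, as a description across genes that share libraries.

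The other splicing genes that fell in the second cKO x WT litter came from several roles. Prpf8, the central protein of the spliceosome, had litter means of 6.3 and 4.29 (difference -2.0, adjusted p = 0.00493). In the Lsm ring Lsm2 had means of 6.90 and 5.00 (difference -1.90, adjusted p = 0.00473), and Lsm4 had a mean of 3.68 in the first litter and lay at the floor in all 8 embryos of the second, where it had at most 4 reads. Lsm8 had means of 7.52 and 6.26 (adjusted p = 0.00150). Of the 3 SF3A proteins 2 fell, Sf3a3 by 1.68 (adjusted p = 0.0150) and Sf3a1 by 1.33 (adjusted p = 0.0245), as did Snrpb by 1.31 (adjusted p = 0.0247) and Hnrnpm by 1.02 (adjusted p = 0.0127). In the opposite direction Lsm1, which replaces Lsm8 in the cytoplasmic ring that acts in mRNA decay, ranged from 3.20 to 6.12 in the first litter and from 5.43 to 7.40 in the second and rose by 1.41 (adjusted p = 0.0267). Hnrnpul1 rose by 1.13 (adjusted p = 0.0259) and Hnrnpa1 by 0.58 (adjusted p = 0.0372). Under the 9 alternatives the calls of Sf3a1 and Hnrnpul1 were lost in 4, of Snrpb, Hnrnpm and Lsm1 in 3 and of Hnrnpa1 in 5, whereas those of Prpf8, Lsm2 and Sf3a3 were lost in none. The split of 3 higher and 11 lower became 8 and 6 with re-centred embryos and 6 and 8 with median-of-ratios scaling.

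**Figure D4:**
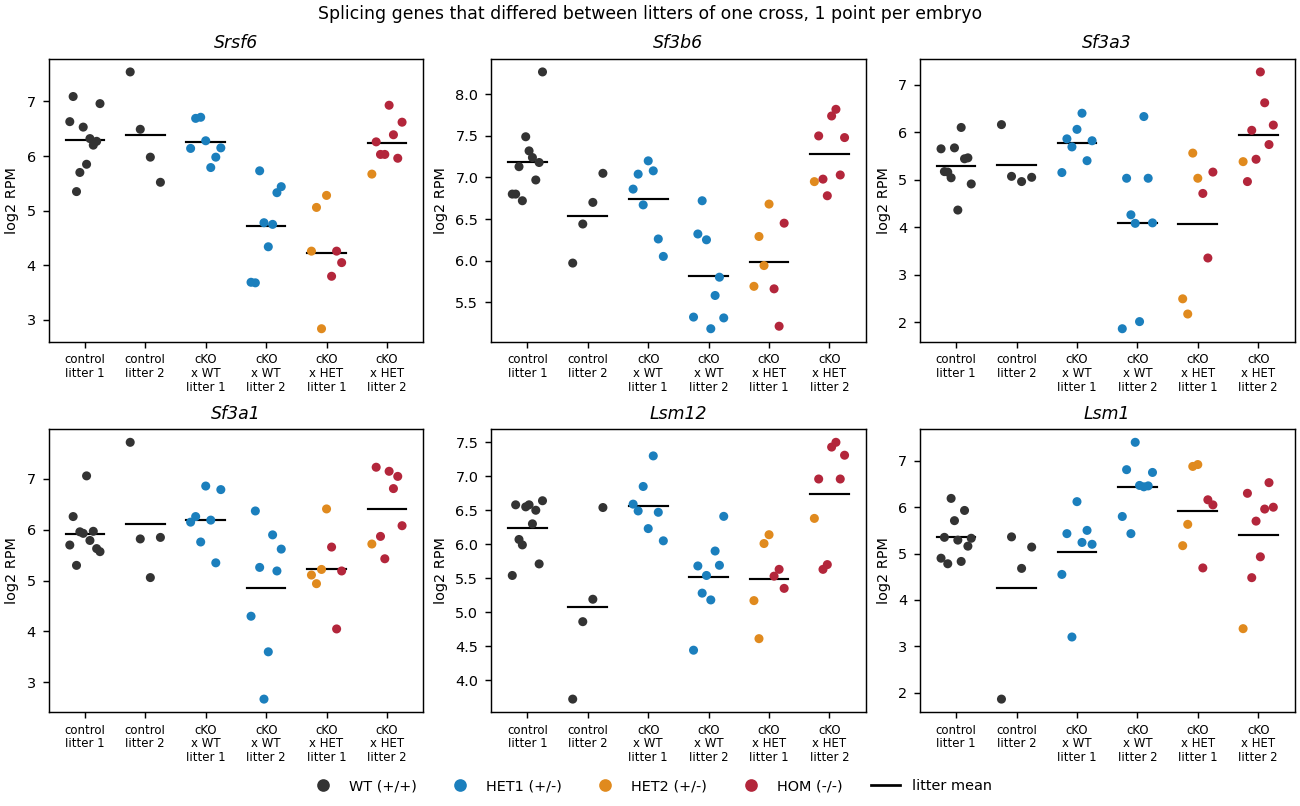
Level (y axis, log2 RPM with the common floor) of Srsf6, Sf3b6, Sf3a3, Sf3a1, Lsm12 and Lsm1 in each of 44 embryos, by litter (x axis), with embryos coloured by genotype group and bars at the litter means. Srsf6 lies between 2.84 and 5.73 in every embryo of the second cKO x WT and first cKO x HET litters, and HET2 and HOM embryos of the latter litter are mixed.

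In the cKO x HET cross Srsf3 and Srsf11 completed the 5 calls. Srsf3 ranged from 5.04 to 6.02 in the first litter and from 5.50 to 8.01 in the second, a rise of 1.33 (standard error 0.37, adjusted p = 0.0276). Srsf11 had litter means of 6.64 and 7.70, a rise of 0.99 (adjusted p = 0.0322). These calls were lost in 3 and 4 of 9 alternatives (adjusted p up to 0.114 and 0.100). Of the 10 SR proteins tested 3 were called and 7 had a positive difference, as had 59 of the 76 splicing genes and 7510 of the 16412 tested genes.

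Of the 99 other splicing genes, 4 were higher and 21 lower in the second cKO x WT litter (25.3%, with 16.7% of all tested genes). Usp39, of the tri-snRNP, fell by 2.65 (adjusted p = 9.36e-06), Gemin5, which recognises small nuclear RNA in the SMN complex, by 2.34 (adjusted p = 0.00482), Gemin2 by 2.19 (adjusted p = 0.000819) and Ddx39b, a helicase of spliceosome assembly and mRNA export, by 2.17 (adjusted p = 0.0117). In the cKO x HET cross 6 were higher and 2 lower in the second litter (8.08%, with 4.94% of all tested genes). Gemin2, Gemin5 and Ddx39b were among the 6, by 3.04, 2.54 and 2.44 (adjusted p = 0.000736, 0.0204 and 0.0323), together with the SR kinase Clk2 by 1.95 (adjusted p = 0.0267). In the control cross 4 were called (4.04%, with 2.57% of all tested genes): Esrp1 was 2.20 higher in the second litter, and Rbmx, Tra2b and Srpk1 were lower by the fit, at -2.36, -1.26 and -0.97. Under the 9 alternatives the calls of Tra2b and Srpk1 were lost in 3 (adjusted p up to 0.0934 and 0.371), those of Esrp1 and, in the cKO x HET cross, Clk2 in 1 and that of Ddx39b in the cKO x HET cross in 2.

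Summed oocyte markers, in which Omt2b and Dppa3 weigh most, moved with these differences. The summed oocyte markers had medians of 4560 and 12900 RPM in the first and second cKO x WT litters, of 8980 and 4160 RPM in the cKO x HET litters and of 3910 and 6050 RPM in the control litters. The summed level of 8 markers of the activated 2-cell stage, all found, had medians of 569 and 1200, of 793 and 483 and of 446 and 447 RPM in the same order. The share of mitochondrially encoded reads moved too, at 11.6% and 7.43%, 7.69% and 12.3%, and 13.2% and 10.5%. The part of these 3 measures in the litter differences was not tested.

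**Figure D5:**
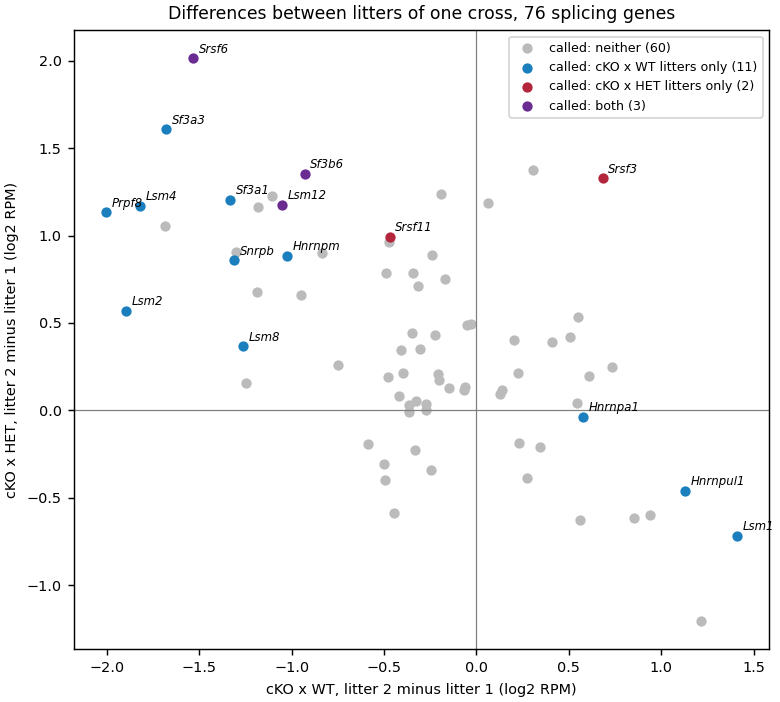
Difference between the second and the first litter of the cKO x WT cross (x axis) and of the cKO x HET cross (y axis), both in log2 RPM, for each of the 76 tested splicing genes. Colours mark genes with an adjusted p under 0.05 in 1 or both crosses. Srsf6, Sf3b6 and Lsm12 are called in both and lie at upper left, lower in the second cKO x WT litter and higher in the second cKO x HET litter.

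Together the 78 genes took 1.09 ± 0.163% of all reads in WT embryos (n = 14), 0.881 ± 0.126% in HET1 (n = 15), 0.913 ± 0.168% in HET2 (n = 5) and 0.925 ± 0.158% in HOM embryos (n = 10). Without Snrpe the shares were 0.952%, 0.792%, 0.813% and 0.862%. By litter the share of all 78 was 1.11% and 1.05% in the control litters, 0.885% and 0.877% in the cKO x WT litters and 0.810% and 1.02% in the cKO x HET litters. The second cKO x HET litter thus lay within 1 SD of the control litters, and the first had the lowest share. Of reads in genes outside the mitochondrial genome the groups took 1.67%, 1.31%, 1.42% and 1.36%. These shares are a description and were not tested.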

How the data were processed

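The members and gene lists were chosen with earlier results of these data known. Per the labels and the study's methods, the authors trimmed reads with Trim Galore 0.6.5 and Cutadapt 2.3, mapped them to GRCm38 with HISAT2 2.1.0, filtered at MAPQ 20 and quantified 35269 genes in SeqMonk, pooling both strands. The authors deposited log2 RPM, and a gene without reads holds the value of 0.9 read there, so deeper embryos have a lower minimum (between -1.81 and 1.86). Whole reads could be recovered from the steps of these values, since 99.9997% lay within 0.05 of a whole read. About 3 reads are needed to tell a gene from 0. This covers counting error only, as PCR copies are not independent without molecular identifiers.

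Every value below 1.86 was raised to it, and 16412 genes with a mean deposited log2 RPM of at least 0 entered limma 3.58.1 (R 4.3.3), using lmFit and a trended eBayes. One model held the 4 groups, and a second held the 6 litters plus a term for HOM embryos. P-values were adjusted by Benjamini-Hochberg over all genes tested, at a threshold of 0.05. Differences are on the floored log2 scale, which understates changes of low genes. The study's methods name no test. Nothing in the labels says that the mating numbers mark a shared day, so they were not used to pair litters. The script was tested on simulated data.

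In each of 7 comparisons up to 8 called members with the largest differences and up to 4 other splicing genes are named, together with the 2 members of each role with the highest RPKM and members outside the test. One gene that this rule names is not reported here. Further genes in the litter order, the HOM comparison and the litter comparisons, where a count was small, were named after their values were seen. Exon lengths and overlaps are from GENCODE M21, in which 75 of the 78 genes have the coordinates of the deposited table. Alternatives covered the floor, pseudocount, filter, scaling, weights, litter, mating number and left-out litters and embryos. Limma voom on the recovered reads and the litter order under other scalings were chosen after seeing the data. Negative binomial tests were not run on these log2 values. Figures were drawn with matplotlib 3.10.9.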

Additional observations from a re-analysis of the deposited data

Results flagged for a closer look

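In the 5 HET2 embryos, 3 values stood apart from the others of their group by Dixon's criterion, among 66 gene and group combinations examined, where chance flags about 1 in 20. Lsm4 was highest in the fourth embryo at 2.67 log2 RPM (7 reads), with the next at 2.02 and 3 of the 5 at the common floor. Prpf38a was lowest in the second embryo at 6.59 (107 reads), with the next at 7.37. Srsf3 was highest at 7.48 in the only HET2 embryo of the second cKO x HET litter, with the next at 6.02 in the first litter, and Srsf3 was also called between these litters.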

How the results depend on the processing

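For 53 results of named genes the direction and the call were recomputed under each alternative that applied. Differences between litters had at most 9, without the litter fits and with no litter or embryo left out. None of the 45 called results reversed. The 14 that kept their call throughout were all differences between litters, and each call in HET1 against WT embryos was lost in 3 or more alternatives. Among results that were not called, Hnrnpd in HET2 against WT embryos ranged from -0.986 to 0.107 on leaving out a litter or embryo and Snrpg from -1.10 to 1.04, and Snrpg was -0.10 with litter means as replicates. In HET1 against WT embryos the 9 called splicing genes became 14 without the common floor (18.4%, with 24.7% of all genes) and 0 with litter as a random effect or litter means as replicates, and 0 to 19 when 1 litter or 1 HET2 embryo was left out. Sf3b6 joined the calls under several of them. The 10 other splicing genes became 0 in both litter fits and 0 to 26 on leaving out. In HOM against WT embryos the counts were 0 to 1 for both lists on leaving out, with 1 other splicing gene under array weights. In HET2 against WT embryos array weights gave 1 (Hnrnpa1) and 2, and leaving out gave 0 and 0 to 1. HOM against HET2 embryos within litter gave 0 throughout.

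The median of the splicing genes minus that of all genes moved from 0.05 to -0.39 without the floor and -0.36 with voom for HOM, and from -0.13 to -0.71 and -0.67 for HET1. On leaving out it ranged from -0.26 to 0.28 (HOM), -0.25 to 0.02 (HET1), -0.38 to 0.01 (HET2) and 0.00 to 0.19 (HOM against HET2). For cKO x WT litters it moved from -0.25 to 0.10 with genes averaging 3 or more and 0.03 with re-centring.

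Between control litters the 1 call (Hnrnph2) became 2 without the floor, 0 with no filter (19 at an unadjusted p under 0.05), 3 with re-centring, 2 with median-of-ratios scaling and 5 with voom, and with array weights, re-centring and median-of-ratios scaling Hnrnph2 was not among the calls, and the 4 other genes became 1 with array weights. Between cKO x WT litters the 14 became 9 with no filter (11.5%, with 5.57% of all genes) and 8 with voom (10.5%, with 12.2%), and the 25 other genes 16 with no filter. Between cKO x HET litters the 5 became 2 with no filter (2.56%, with 1.39% of all genes), 9 with genes averaging 3 or more (12.5%, with 12.7%), 3 with re-centring (3.95%, with 5.69%) and 9 with array weights (11.8%, with 9.04%), and the 8 other genes 17 with array weights. The cause of these shifts was not tested.

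With mating number as a replicate block 7 splicing genes were called in HET1, all among the 9. The differences between second and first litters had a correlation over all tested genes of 0.40 (control and cKO x WT), -0.37 (control and cKO x HET) and -0.71 (cKO x WT and cKO x HET). Whether the mating numbers mark anything shared between crosses was not tested. Depth limits low genes most. Of the 76 genes 17 did not have a read in every embryo, and the part of depth in this was not tested.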
